A study of Mus musculus with 6 samples.

Results

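The genes described here build the route by which proteins enter the endoplasmic reticulum (ER) and shuttle between the ER and the Golgi apparatus. They were chosen by gene name, with names beginning Sec, Ssr, Spcs, Srp, Tmed, Kdelr and Cop followed by a subunit number or letter, and the set was selected on the counts of the same libraries and the same culture comparison that are described below. The name rule took 65 of 23337 counted genes. Of these, 57 passed the filter on low counts and were tested, and each of the 57 reached the minimum level in all 3 libraries of both cultures. The other 8 (Srp54c, Sec16b, Tmed6, Tmed11, Sec1, Sec14l3, Sec14l4 and Sec14l5) had too few counts to be tested. Since the differences between the cultures helped to choose the set, they are given as a description.

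Polyadenylated RNA had been sequenced from mouse hematopoietic stem and progenitor cells (HSPCs), the blood-forming cells of the marrow, after transformation by the leukemic fusion oncogene MLL-AF9. Of the 6 libraries, 3 came from pro-lymphoid culture (replicates 1, 5 and 6) and 3 from pro-myeloid culture (replicates 2, 3 and 4), and the cells of both cultures carried MLL-AF9. The genotype and age of the mice, the medium of each culture, its duration and the way MLL-AF9 was introduced are not stated in the labels. Nothing in the labels says that the libraries of a culture came from separate animals or cultures, so the spread between them may be technical.

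Proteins with a signal sequence are recognised while they are being made by the signal recognition particle and handed to the Sec61 channel, where accessory proteins assist them and the signal peptidase removes the signal sequence. Cargo leaves the ER in vesicles with a COPII coat, and vesicles with a COPI coat carry escaped ER proteins back from the Golgi. Myeloid progenitors are known for loading large amounts of granule protein through this route, and plasma cells for their antibody.

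Of the 57 tested genes, 26 passed the test described below as lower in pro-lymphoid than in pro-myeloid culture, 1 as higher, and 30 did not pass, where 20.6% of all tested genes passed as lower and 16.8% as higher. By sign alone, 52 members had a negative log2 fold change (pro-lymphoid minus pro-myeloid) and 5 a positive one (Sec61a2, Sec24b, Sec31b, Tmed1 and Tmed3). Of all 12477 tested genes, 6242 had a negative log2 fold change. The median log2 fold change was −0.38 over the members and −0.00019 over all tested genes. Summed over the 65 genes, the level was 7471, 7911 and 7836 CPM (counts scaled to a common library size) in pro-lymphoid libraries, against 10156, 10576 and 10309 CPM in pro-myeloid libraries. The means were 7739 ± 236 and 10347 ± 212 CPM (SD, n = 3 each), a ratio of 0.748, and the cultures did not overlap.

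Under edgeR's quasi-likelihood test with Benjamini-Hochberg adjustment over all tested genes at 0.05, the only member to pass as higher was Sec31b. For 41 members every pro-lymphoid library lay below every pro-myeloid library, and for 4 every one lay above, against backgrounds of 27.2% and 26.4% of all tested genes. With a difference of at least 2-fold in addition to the test, 2 members (Copz2 and Kdelr3) were lower and 1 (Sec31b) was higher, where 12.8% and 7.54% of all tested genes were. These shares are printed as the background of the counts, and nothing is read from them, because the comparison had a part in choosing the set.

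**Figure D1:**
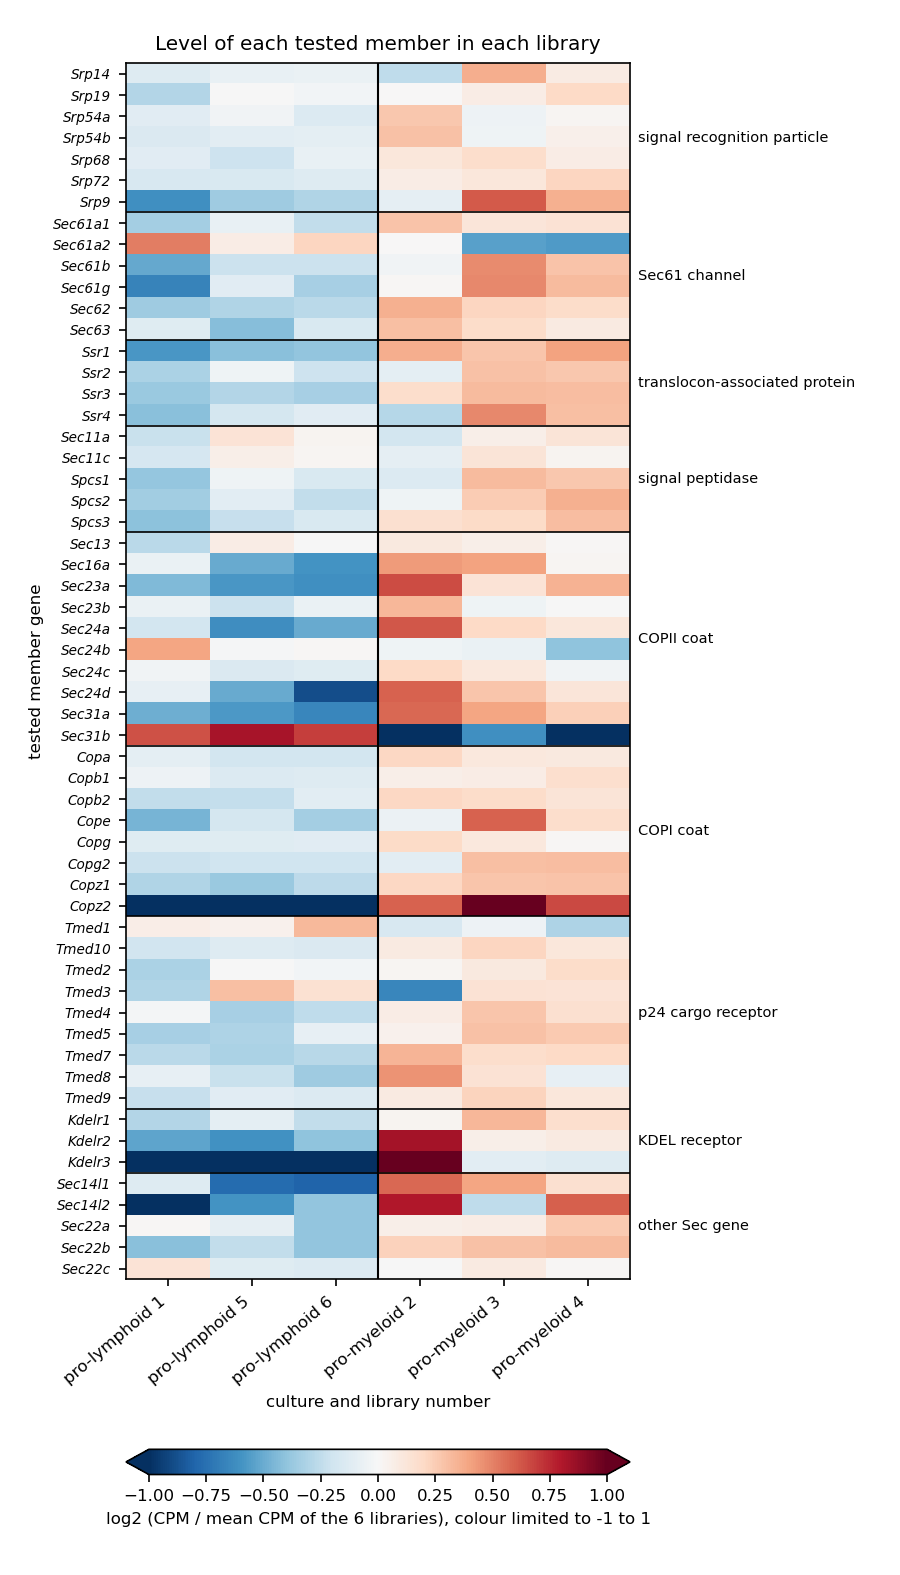
Level of each of the 57 tested members (rows, grouped by role) in the 3 pro-lymphoid and 3 pro-myeloid libraries (columns). Colour is the log2 ratio of the CPM to the mean of the 6 libraries, limited to −1 to 1. Most rows are blue in all pro-lymphoid libraries, and Sec31b is among the few rows with the opposite colours.

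A part of the set has a short motif at the gene start that is known from ER stress. The core of the unfolded protein response element, TGACGTG, is known as a site bound by XBP1 and ATF6, and was searched on both strands in RefSeq promoter windows (GRCm38.p6) from 250 bases before to 50 bases after each gene start. It was present in 6 of 59 windows of 54 matched member genes (10.2%), and in 2.01% of all 32851 windows and 2.71% of the 11249 windows of tested genes. The member windows included those of members that were not tested. The 6 genes were Kdelr3, Sec23a, Sec24d, Copb2, Copb1 and Sec16b, and the first 4 were among the 22 matched genes that passed as lower. The share with the motif among all genes that passed as lower was not computed. Nothing is therefore read from these 4 about the motif and the difference between the cultures. Copb1 did not pass, and Sec16b had 0 counts in every library and was not tested. Only the windows of the 4 genes that passed as lower are shown, and those of Copb1 and Sec16b are not. They let the motif be seen at its place, with the motif in capitals, read on the strand of the gene. In Kdelr3 and Copb2 the motif lies on the other strand and reads CACGTCA.
Kdelr3, chr15:79516158-79516457, plus strand: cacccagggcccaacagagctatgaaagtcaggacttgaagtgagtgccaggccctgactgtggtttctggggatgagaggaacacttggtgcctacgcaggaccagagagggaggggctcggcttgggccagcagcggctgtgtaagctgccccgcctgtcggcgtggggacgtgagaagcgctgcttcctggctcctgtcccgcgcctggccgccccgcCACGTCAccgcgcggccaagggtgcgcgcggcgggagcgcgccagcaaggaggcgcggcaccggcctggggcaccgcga
Sec23a, chr12:59011968-59012267, minus strand: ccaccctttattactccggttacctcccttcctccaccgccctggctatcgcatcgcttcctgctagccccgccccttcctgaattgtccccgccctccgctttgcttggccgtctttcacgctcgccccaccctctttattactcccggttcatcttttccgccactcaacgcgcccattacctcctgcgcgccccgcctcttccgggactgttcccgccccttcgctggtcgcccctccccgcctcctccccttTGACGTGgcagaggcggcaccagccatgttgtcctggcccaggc
Sec24d, chr3:123267246-123267545, plus strand: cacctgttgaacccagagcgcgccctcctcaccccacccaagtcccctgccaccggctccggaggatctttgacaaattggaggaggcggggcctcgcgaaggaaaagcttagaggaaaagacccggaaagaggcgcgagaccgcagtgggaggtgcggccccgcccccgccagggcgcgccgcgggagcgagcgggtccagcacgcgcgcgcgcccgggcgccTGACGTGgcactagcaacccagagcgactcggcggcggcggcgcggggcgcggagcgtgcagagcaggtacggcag
Copb2, chr9:98563481-98563780, plus strand: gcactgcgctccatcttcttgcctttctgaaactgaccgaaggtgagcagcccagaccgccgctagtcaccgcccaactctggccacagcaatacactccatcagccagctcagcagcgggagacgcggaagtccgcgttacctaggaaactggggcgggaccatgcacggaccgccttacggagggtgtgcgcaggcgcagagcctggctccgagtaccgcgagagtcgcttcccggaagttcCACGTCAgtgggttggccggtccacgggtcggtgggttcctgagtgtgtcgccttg

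Counted from the gene start, the motif begins at base −29 in Kdelr3, 7 in Sec23a, −26 in Sec24d and −6 in Copb2, so that it lies close to the start in these windows. In Copb1 and Sec16b, whose windows are not shown, it begins at base −27 and −44. The longer ER stress response element, which joins CCAAT and CCACG over a spacer of 9 bases, was in none of the 59 member windows, in 0.119% of all windows and in 0.133% of the windows of tested genes. The CCAAT box alone was in 44.1% of member windows, 37.4% of all windows and 38.3% of the windows of tested genes. The cyclic AMP response element TGACGTCA was in 1.69% of member windows (Cope), 1.79% of all windows and 3.03% of the windows of tested genes. The E-box CACGTG was in 8.47% of member windows, 7.15% of all windows and 9.93% of the windows of tested genes. The NRF1 core GCATGCGC was in 3.39%, 2.71% and 5.2%, in the same order, so that the member share of both motifs lay above that of all windows and below that of tested genes. The UPR element core and the cyclic AMP response element share their first 6 letters, and each was counted on its own full sequence. A match is only the presence of these letters in the window.

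The signal recognition particle is made of proteins on an RNA scaffold. Of its 8 genes in the set 7 were tested, of which 1 passed as lower and 6 did not pass (median log2 fold change −0.22). Beside this and the later counts by role, 20.6% of all tested genes passed as lower and 16.8% as higher. Srp9, whose product pairs with that of Srp14 in the part of the particle that pauses translation, had 67.4, 80.5 and 84.0 CPM in pro-lymphoid libraries, against 97.1, 158 and 132 CPM in pro-myeloid libraries. The cultures did not overlap, and the log2 fold change was −0.74 ± 0.19 (SE), past the threshold. Srp9 lost the call in most fits that left out 1 library. Its partner Srp14 had 75.4, 78.1 and 78.5 CPM in pro-lymphoid libraries, against 68.9, 106 and 87.1 CPM in pro-myeloid libraries. Here the cultures overlapped, with pro-myeloid replicate 2 lowest of all (−0.17 ± 0.16, not past the threshold).

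Srp68 and Srp72 encode the pair that anchors the signal-binding end of the particle. Srp68 had 216, 203 and 222 CPM in pro-lymphoid libraries and 253, 263 and 246 CPM in pro-myeloid libraries (−0.25 ± 0.10). Srp72 had 193, 194 and 197 CPM in pro-lymphoid libraries and 227, 234 and 251 CPM in pro-myeloid libraries (−0.28 ± 0.10). Both were lower in every pro-lymphoid library, and neither passed the threshold. Srp54a and Srp54b, near-identical copies of the gene for the subunit that binds signal sequences, had log2 fold changes of −0.18 and −0.22 without passing. Reads can be split between these copies, so values for single copies are uncertain. Srp54c lies wholly within the exons of Srp54b (2516 shared bases, 38.3% of Srp54b), and reads in shared bases are counted for neither gene. The 0 counts of Srp54c in every library therefore do not measure its level.

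Most genes of the channel itself passed as lower. Of the 6 genes for the Sec61 complex and its partners Sec62 and Sec63, 5 passed and 1 did not, with a median log2 fold change of −0.49. Sec61a1 (mm10 chr6:88503607-88518800), which encodes the pore subunit, had 291, 349 and 309.7 CPM in pro-lymphoid libraries, against 449, 399.6 and 407 CPM in pro-myeloid libraries (−0.40 ± 0.12, past the threshold). Every pro-lymphoid value was below every pro-myeloid value, but the call was lost in each fit that left out 1 library. Sec61b, the small beta subunit, had 121, 148 and 148 CPM in pro-lymphoid libraries and 168, 239 and 211 CPM in pro-myeloid libraries (−0.56 ± 0.16). Sec61g, the gamma subunit, had 58.3, 86.0 and 73.6 CPM in pro-lymphoid libraries and 93.9, 129.8 and 116 CPM in pro-myeloid libraries (−0.64 ± 0.18).

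Neither small subunit overlapped between the cultures, and both passed as lower, with the calls lost in several fits that left out 1 library. Sec62, which helps proteins enter after they have been made, had 124, 129 and 132 CPM in pro-lymphoid libraries, against 204, 185 and 181 CPM in pro-myeloid libraries. Its log2 fold change of −0.56 ± 0.10 passed the threshold in every alternative fit, that is, with other scalings, filters and tools and without each library. Sec63, which recruits the chaperone BiP to the channel and which was named after its value was seen, had 109, 88.0 and 106 CPM in pro-lymphoid libraries, against 146, 134 and 126 CPM in pro-myeloid libraries, and also passed as lower (−0.42 ± 0.12). The call of Sec63 was lost with no scaling and in most fits that left out 1 library.

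Sec61a2, the second gene for a pore subunit, ran the other way. It had 17.2, 12.7 and 14 CPM in pro-lymphoid libraries, against 12.1, 8.32 and 8.17 CPM in pro-myeloid libraries. The cultures did not overlap, but the log2 fold change of 0.62 ± 0.23 did not pass the threshold. It did pass with upper-quartile scaling, with DESeq2 and without pro-myeloid replicate 2. On the scale of RPKM (CPM divided by exon length), Sec61a2 made up 5.67 ± 1.31% of the level of both alpha genes in pro-lymphoid libraries and 2.82 ± 0.461% in pro-myeloid libraries (SD, n = 3 each), so that Sec61a1 held most of it in both cultures.

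The translocon-associated proteins, which sit beside the channel and help some signal sequences to open it, had the second most negative median among the roles of 4 or more tested genes (−0.52), after the mixed group of other Sec genes (−0.63). Of 4 genes, 2 passed as lower and 2 did not pass. Ssr1 (chr13:37971401-37994190), for the alpha subunit, had 436, 489.8 and 498 CPM in pro-lymphoid libraries, against 842, 792 and 864 CPM in pro-myeloid libraries. The gap between the cultures was far wider than the spread within either, with a log2 fold change of −0.81 ± 0.12 that passed in every alternative fit.

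Ssr3, for the gamma subunit, had 296, 313 and 304 CPM in pro-lymphoid libraries and 433, 477 and 475 CPM in pro-myeloid libraries (−0.60 ± 0.10, past the threshold without overlap). Ssr4, for the delta subunit, had 143, 169 and 176 CPM in pro-lymphoid libraries and 156, 265 and 235 CPM in pro-myeloid libraries (−0.43 ± 0.20). Its cultures overlapped through the low value of pro-myeloid replicate 2, and it did not pass the threshold. It passed when that library was left out, as did Ssr2 (−0.35 ± 0.15 with all libraries).

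In the signal peptidase, the enzyme subunits and the accessory subunits differed in their values. Of the 5 genes, 2 passed as lower and 3 did not pass (median −0.35). Sec11c, one of the catalytic subunits, had 123, 144 and 141 CPM in pro-lymphoid libraries and 130.4, 152 and 141 CPM in pro-myeloid libraries (−0.05 ± 0.12). Its cultures overlapped throughout, as did those of the other catalytic gene, Sec11a (−0.02 ± 0.14). Spcs3, an accessory subunit, had 242, 274 and 289 CPM in pro-lymphoid libraries, against 359, 367 and 398 CPM in pro-myeloid libraries (−0.48 ± 0.12, past the threshold). Spcs2 had 236, 279 and 254 CPM in pro-lymphoid libraries and 292, 358 and 385 CPM in pro-myeloid libraries (−0.43 ± 0.14, past the threshold). Both accessory genes were lower in every pro-lymphoid library, and both lost the call in some fits that left out 1 library. Spcs2 also lost it with upper-quartile scaling, no scaling and no filter.

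Spcs1, the third accessory gene, had 74.0, 94.3 and 87.5 CPM in pro-lymphoid libraries and 88.2, 121 and 117 CPM in pro-myeloid libraries (−0.35 ± 0.16). It overlapped between the cultures and did not pass. Of its exon length, 26.8% is shared with Glt8d1 on the opposite strand, and the counts do not use strand. Whether catalytic and accessory genes differ in their response was not tested.

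The COPII coat held calls in both directions. Of 10 tested genes, 5 passed as lower, 1 as higher and 4 did not pass (median −0.44). Sec31a (chr5:100361649-100416234), the main gene for the outer cage of the coat, had 178, 167 and 159 CPM in pro-lymphoid libraries, against 372, 328 and 295 CPM in pro-myeloid libraries. All pro-lymphoid values were well below all pro-myeloid values, at a log2 fold change of −0.98 ± 0.13 that passed in every alternative fit. Sec31b (chr19:44516957-44545848), its paralog, had 6.18, 7.06 and 6.44 CPM in pro-lymphoid libraries, against 0.677, 2.60 and 0.910 CPM in pro-myeloid libraries. It was higher in every pro-lymphoid library and was the only member that passed as higher (2.24 ± 0.52).

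Pro-myeloid replicate 3, the highest of its culture for Sec31b, made the difference smaller, since the log2 fold change was 3.04 without it. The call was lost without pro-myeloid replicate 4. Sec31b made up 4.05 ± 0.393% of the Sec31 level per exon length in pro-lymphoid libraries and 0.459 ± 0.345% in pro-myeloid libraries, so Sec31a remained the main transcript of the pair in both. Sec13, which pairs with Sec31 in the cage, had 114, 145 and 137 CPM in pro-lymphoid libraries and 147, 143 and 139 CPM in pro-myeloid libraries. These overlapped, and the log2 fold change of −0.12 ± 0.12 did not pass.

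In the inner layer of the coat, Sec23a (chr12:58958384-59012017), whose product stimulates the Sar1 GTPase, had 25.4, 23.1 and 22.5 CPM in pro-lymphoid libraries, against 54.5, 38.0 and 44.0 CPM in pro-myeloid libraries. It passed as lower without overlap and in every alternative fit (−0.94 ± 0.16). Its paralog Sec23b, the more abundant of the pair, did not pass (−0.22 ± 0.13), and the share of Sec23a in the Sec23 level per exon length was 13.7 ± 0.840% in pro-lymphoid libraries and 20.6 ± 1.02% in pro-myeloid libraries.

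The Sec24 genes encode the subunits that pick cargo, each with its own binding preferences, and are described together although they were named after their values were seen. Sec24a had 24.3, 17.9 and 19.4 CPM in pro-lymphoid libraries and 42.4, 31.8 and 29.8 CPM in pro-myeloid libraries (−0.75 ± 0.19, past the threshold). Sec24d had 73.2, 54.5 and 41.8 CPM in pro-lymphoid libraries and 117, 93.9 and 83.9 CPM in pro-myeloid libraries (−0.80 ± 0.22, past the threshold). Both were lower in every pro-lymphoid library, and both lost the call without pro-lymphoid replicate 5 or 6, Sec24d also without pro-myeloid replicate 2 or 3. Sec24b had 87.1, 65.8 and 66.7 CPM in pro-lymphoid libraries and 64.3, 63.3 and 50.2 CPM in pro-myeloid libraries (0.30 ± 0.16), higher without overlap but not past the threshold.

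Sec24c, the most abundant of the 4 genes per exon length, had 197, 182 and 186 CPM in pro-lymphoid libraries and 232, 217 and 197 CPM in pro-myeloid libraries (−0.19 ± 0.11, not past the threshold). The makeup of the Sec24 pool therefore differed in its values. Sec24b held 20.7 ± 1.11% of the pool per exon length in pro-lymphoid libraries, against 13.9 ± 0.851% in pro-myeloid libraries. Sec24d held 19.3 ± 3.38% and 27.9 ± 1.65%, in the same order of cultures. Neither share overlapped between the cultures. Sec16a, the scaffold of ER exit sites, was also named after its value was seen. It had 131, 96.6 and 90.6 CPM in pro-lymphoid libraries, against 184, 182 and 139 CPM in pro-myeloid libraries, and passed as lower (−0.67 ± 0.18), with the call lost in several fits that left out 1 library.

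**Figure D2:**
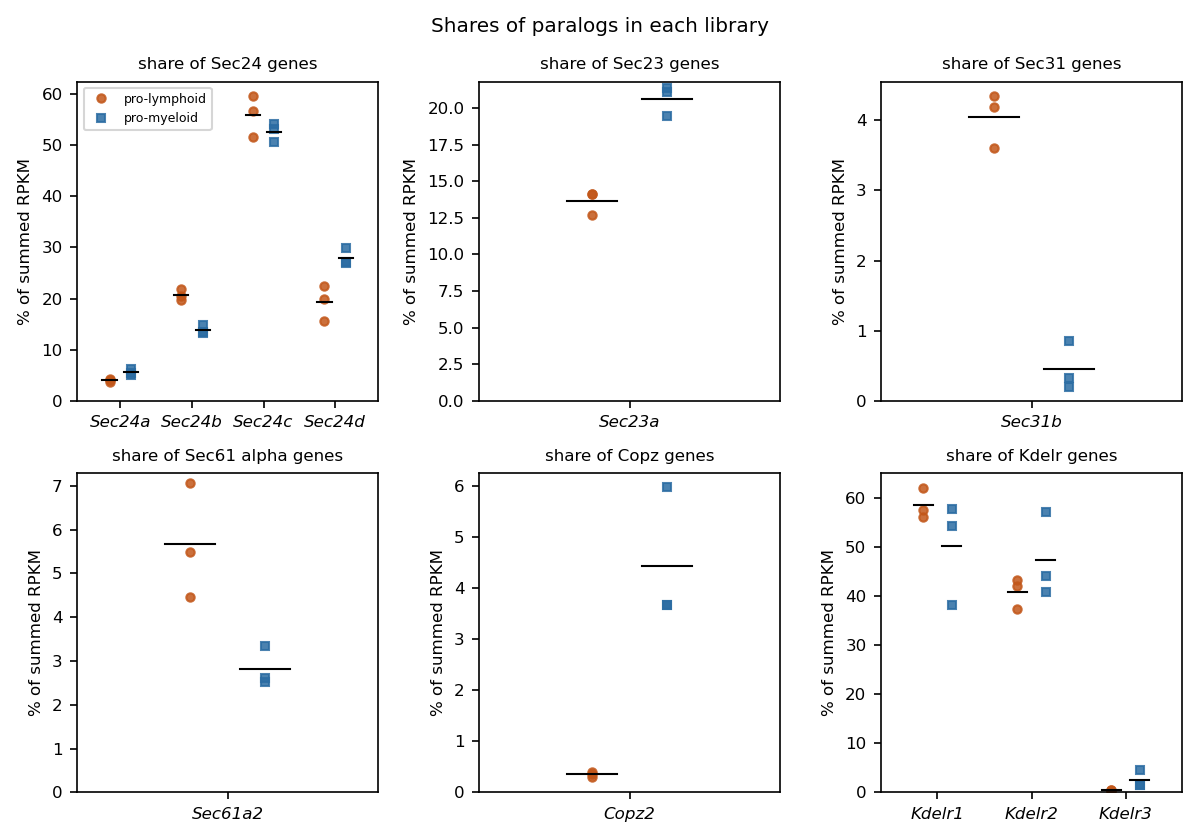
Share of single paralogs in the summed RPKM of their family, in percent, in each pro-lymphoid (circles) and pro-myeloid (squares) library, with lines at the means of 3 libraries. Sec24b, Sec31b and Sec61a2 hold larger shares in pro-lymphoid libraries (20.7%, 4.05% and 5.67%), and Sec24d, Sec23a and Copz2 smaller ones (19.3%, 13.7% and 0.357%).

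Of the 8 tested genes of the COPI coat, 4 passed as lower and 4 did not pass (median −0.38). In each of the 8, every pro-lymphoid value lay below every pro-myeloid value, as was the case for 27.2% of all tested genes. Copz1, the main gene for the zeta subunit, had 208, 198 and 214 CPM in pro-lymphoid libraries, against 297, 311 and 313 CPM in pro-myeloid libraries (−0.57 ± 0.10, past the threshold in every alternative fit). Its paralog Copz2 (chr11:96849876-96861202) had 0.353, 0.444 and 0.442 CPM in pro-lymphoid libraries, against 6.33, 11 and 6.63 CPM in pro-myeloid libraries. This was the most negative log2 fold change of the set (−4.26 ± 0.35), and it passed in every alternative fit. Copz2 was 0.357 ± 0.0499% of the zeta genes' level per exon length in pro-lymphoid libraries and 4.43 ± 1.33% in pro-myeloid libraries.

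Cope, for the epsilon subunit, had 139, 170.3 and 152 CPM in pro-lymphoid libraries and 185, 290.1 and 218 CPM in pro-myeloid libraries (−0.58 ± 0.18). It passed as lower, but not with upper-quartile scaling and not in most fits that left out 1 library. Copb2, for the beta-prime subunit that binds retrieval signals, is given for its promoter motif above and was named after its value was seen. It had 172, 172 and 189 CPM in pro-lymphoid libraries and 236, 232 and 222 CPM in pro-myeloid libraries (−0.37 ± 0.10, past the threshold). Copb2 lost the call in most fits that left out 1 library. The genes Copa, Copb1, Copg and Copg2, for the alpha, beta and gamma subunits, had log2 fold changes between −0.38 and −0.21 and did not pass.

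The p24 proteins, encoded by most of the Tmed genes, are cargo receptors that cycle between the ER and the Golgi in both coats. All Tmed genes were placed in this role by name. Of 9 tested genes, 2 passed as lower and 7 did not pass (median −0.30). Tmed7 had 178, 172 and 177 CPM in pro-lymphoid libraries, against 272, 243 and 246 CPM in pro-myeloid libraries (−0.53 ± 0.10, past the threshold in every alternative fit). Tmed5 had 112, 114 and 133 CPM in pro-lymphoid libraries and 146, 173 and 169.5 CPM in pro-myeloid libraries (−0.44 ± 0.12, past the threshold). The call of Tmed5 was lost in most fits that left out 1 library. Tmed2, the member with the highest level per exon length in the role, had 407, 508 and 499 CPM in pro-lymphoid libraries and 516, 543 and 578 CPM in pro-myeloid libraries (−0.21 ± 0.13). It was lower without overlap and did not pass.

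Tmed8 had 70.6, 63.9 and 58.2 CPM in pro-lymphoid libraries and 102, 82.6 and 70.5 CPM in pro-myeloid libraries (−0.41 ± 0.16), with a slight overlap and no call. Tmed1 and Tmed3 had positive values. Tmed1 had 18.3, 18.0 and 22 CPM in pro-lymphoid libraries and 15.7, 16.9 and 14.2 CPM in pro-myeloid libraries (0.32 ± 0.16, no overlap, not past the threshold), and 22.7% of its exon length is shared with Dnm2 on the opposite strand. Tmed3 had 105, 159 and 144 CPM in pro-lymphoid libraries and 82.3, 143 and 142 CPM in pro-myeloid libraries (0.15 ± 0.25), with overlap and with the lowest value of each culture in replicate 1 or 2.

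All 3 KDEL receptor genes passed as lower, with the most negative median of any role (−0.88). Their products catch ER chaperones that carry the KDEL signal and return them from the Golgi. Kdelr1 had 83.6, 95.9 and 86.5 CPM in pro-lymphoid libraries, against 105, 129 and 116 CPM in pro-myeloid libraries (−0.40 ± 0.12). Kdelr2 had 74.1, 70.2 and 80.8 CPM in pro-lymphoid libraries, against 190.1, 111 and 114 CPM in pro-myeloid libraries (−0.88 ± 0.22). Kdelr3 (chr15:79516408-79527739) had 0.353, 0.784 and 0.838 CPM in pro-lymphoid libraries, against 11.4, 2.99 and 2.95 CPM in pro-myeloid libraries (−3.12 ± 0.68).

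None of the 3 receptor genes overlapped between the cultures, and pro-myeloid replicate 2 stood high for Kdelr2 and Kdelr3. Without that library the log2 fold change of Kdelr3 was −2.17 and still passed the threshold. Kdelr1 lost the call with upper-quartile scaling, with no filter and in most fits that left out 1 library. Kdelr2 lost it in each fit that left out a pro-lymphoid library. Per exon length, Kdelr1 held 58.6 ± 3.05% of the receptor level in pro-lymphoid libraries and 50.1 ± 10.4% in pro-myeloid libraries, while Kdelr3 held 0.465 ± 0.177% and 2.48 ± 1.75%. The share of Kdelr1 overlapped between the cultures through pro-myeloid replicate 3. Of the exon length of Kdelr3, 9.34% is shared with Ddx17 on the opposite strand, where their reads cannot be told apart.

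The name rule also took 9 genes with other roles, of which 5 were tested, 2 passed as lower and 3 did not pass. Sec22b, a membrane fusion protein (SNARE) of transport between the ER and the Golgi, had 60.0, 67.8 and 61.2 CPM in pro-lymphoid libraries, against 94.3, 98.2 and 99.9 CPM in pro-myeloid libraries (−0.63 ± 0.10). It passed without overlap and in every alternative fit. The Sec14l genes encode lipid-binding proteins and not parts of the translocation or coat machinery. Sec14l1 had 70.6, 45.3 and 44.2 CPM in pro-lymphoid libraries and 115, 101 and 86.1 CPM in pro-myeloid libraries (−0.92 ± 0.21, past the threshold). Its call was lost without pro-lymphoid replicate 5 or 6. Sec14l2 had 0.325, 0.444 and 0.512 CPM in pro-lymphoid libraries and 1.17, 0.562 and 1.02 CPM in pro-myeloid libraries (−1.10 ± 0.42, not past the threshold). Both were lower in every pro-lymphoid library. Without these 9 genes, 24 of 52 tested genes passed as lower and the median was −0.38.

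**Figure D3:**
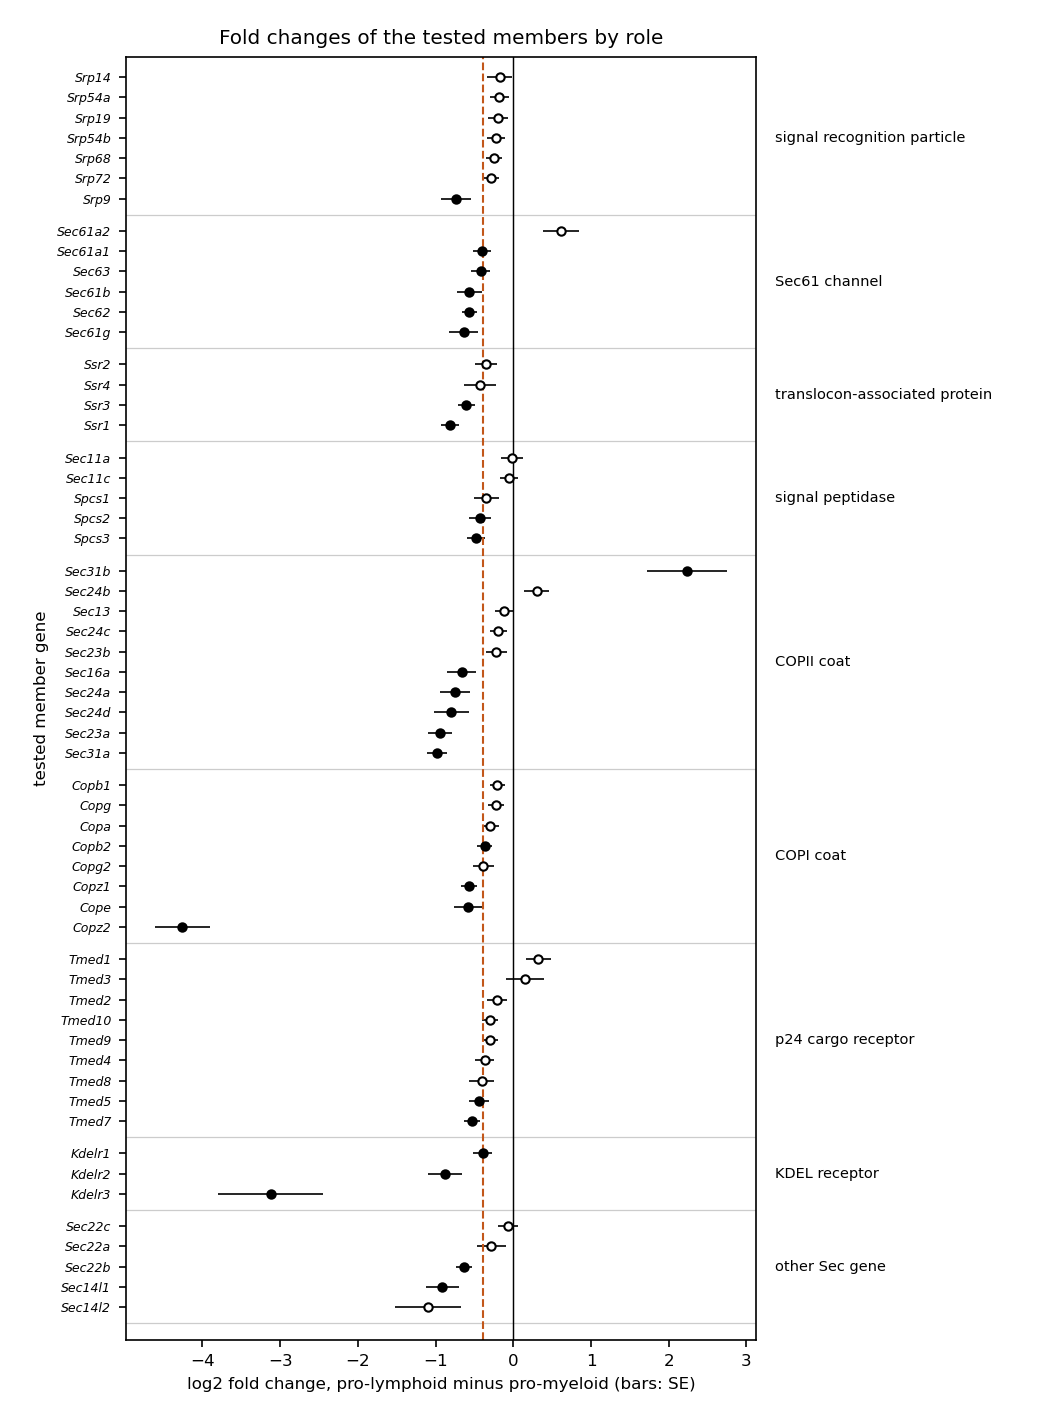
Log2 fold change (pro-lymphoid minus pro-myeloid, x axis) with its SE for each tested member, grouped by role and ordered within it. Filled points passed the edgeR threshold and open points did not, and the dashed line marks the median of the members, −0.38. Copz2 and Kdelr3 lie far to the left (−4.26 and −3.12) and Sec31b far to the right (2.24).

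Summed by role, the ratio of the pro-lymphoid to the pro-myeloid mean level was lowest for the KDEL receptors (0.631), the other Sec genes (0.643) and the translocon-associated proteins (0.644). It was 0.721 for the Sec61 channel, 0.722 for COPII, 0.770 for COPI, 0.786 for the signal peptidase, 0.818 for the signal recognition particle and 0.823 for the p24 receptors. The translocon-associated sum was 1134 ± 72.7 CPM in pro-lymphoid libraries and 1759 ± 108 CPM in pro-myeloid libraries. The COPI sum was 1329 ± 7.82 CPM in pro-lymphoid libraries and 1727 ± 51.5 CPM in pro-myeloid libraries (SD, n = 3 each). Differences between roles were not tested.

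Other genes of the same route, which the name rule does not take, were read from 8 lists drawn up from textbook knowledge. Of 156 listed genes 154 were found and 152 tested, of which 57 passed as lower, 8 as higher and 87 did not pass, where 20.6% of all tested genes passed as lower and 16.8% as higher. The share of lower genes in some lists, such as oligosaccharyltransferase with 3 of 12, lay near that of all tested genes. Their median log2 fold change was −0.30. The list with the largest share of lower genes was that of ER chaperones and folding enzymes, with 17 of 25 lower and none higher (median −0.58). The tail-anchor insertion list, whose products place proteins in the ER membrane without the Sec61 channel, had 3 higher and 2 lower of 15 (median 0.029). In 4 of the lists (chaperones, oligosaccharyltransferase, unfolded protein response and COPI partners) no gene was higher with edgeR, DESeq2 or limma-voom. At an unadjusted edgeR p under 0.05, 1 gene of these lists was higher, the COPI partner Arf3.

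**Figure D4:**
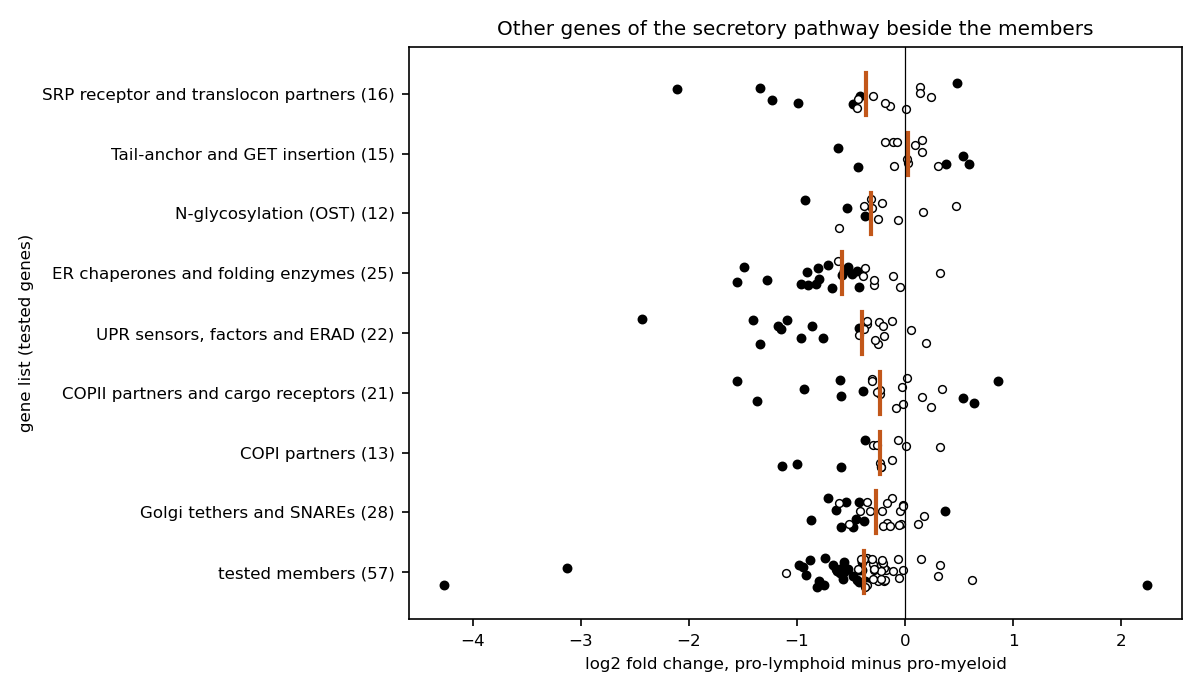
Log2 fold change (pro-lymphoid minus pro-myeloid, x axis) of each tested gene in 8 lists of other secretory pathway genes and, in the last row, of the 57 members. Filled points passed the edgeR threshold, and bars mark the medians, from −0.58 for ER chaperones and folding enzymes to 0.029 for tail-anchor insertion.

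Some close partners of the members passed the threshold and others did not. Of the 16 genes for the receptor of the signal recognition particle and for channel partners, 6 were lower and 1 (Ktn1, named after its value was seen) was higher. Srpr, for the alpha subunit of that receptor, had 117, 131 and 121 CPM in pro-lymphoid libraries and 161, 143 and 150.1 CPM in pro-myeloid libraries (−0.30 ± 0.11, edgeR adjusted p = 0.0607). Srprb, for the beta subunit, had a log2 fold change of 0.14 ± 0.12 (edgeR adjusted p = 0.423), and Tram1, a protein beside the channel, one of 0.01 ± 0.11 (edgeR adjusted p = 0.938). Ckap4, which shapes ER sheets, had 106, 89.7 and 111 CPM in pro-lymphoid libraries, against 271, 257 and 246 CPM in pro-myeloid libraries (−1.34 ± 0.12, edgeR adjusted p = 0.000394). Rrbp1, a ribosome receptor of the rough ER, was lower at −0.99 ± 0.20 (edgeR adjusted p = 0.00834), and Wfs1, an ER membrane protein of calcium balance, at −2.11 ± 0.45 (edgeR adjusted p = 0.0101). Without pro-lymphoid replicate 5 the log2 fold change of Wfs1 was −2.70.

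The small GTPases Sar1 and Arf1, which start coat assembly, did not pass the threshold. Sar1a, of the COPII coat, had 132, 142 and 143 CPM in pro-lymphoid libraries and 136, 149 and 138 CPM in pro-myeloid libraries (−0.02 ± 0.10, edgeR adjusted p = 0.876). Arf1, of the COPI coat, had 459.8, 549.5 and 518 CPM in pro-lymphoid libraries and 504, 566 and 528 CPM in pro-myeloid libraries (−0.06 ± 0.12, edgeR adjusted p = 0.701). Both overlapped between the cultures. Sar1b (−0.30 ± 0.12) and Arcn1, which encodes the delta subunit of COPI and escapes the name rule (−0.23 ± 0.11), did not pass (edgeR adjusted p = 0.0822 and 0.136). Arf4, another GTPase of this family, had 105, 95.7 and 103 CPM in pro-lymphoid libraries, against 209.5, 222 and 237 CPM in pro-myeloid libraries (−1.14 ± 0.11, edgeR adjusted p = 0.000437).

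Of the 21 COPII partners and cargo receptors, 6 were lower and 3 higher. Lman1 and Mcfd2 form the receptor that carries a set of glycoproteins, coagulation factors among them, out of the ER. Lman1 had 127, 132 and 136 CPM in pro-lymphoid libraries, against 308, 363 and 346 CPM in pro-myeloid libraries (−1.37 ± 0.11, edgeR adjusted p = 0.000261). Mcfd2 had 31.2, 37.3 and 32.4 CPM in pro-lymphoid libraries, against 99.6, 107 and 90.6 CPM in pro-myeloid libraries (−1.56 ± 0.12, edgeR adjusted p = 0.000237). Both parts of the receptor were lower without overlap. Cnih4, a cargo receptor for membrane receptors, ran the other way with 69.0, 71.7 and 67.0 CPM in pro-lymphoid libraries, against 40.4, 34.4 and 39.6 CPM in pro-myeloid libraries (0.86 ± 0.11, edgeR adjusted p = 0.00149). Mia3, which loads large cargo such as procollagen, was lower at −0.59 ± 0.12 (edgeR adjusted p = 0.00737), and Ergic3 did not pass (−0.31 ± 0.19, edgeR adjusted p = 0.228).

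Further along the route, 4 of 13 COPI partners were lower and none higher, with Arfgap3, which is known in COPI transport, at −1.0 (edgeR adjusted p = 0.00183). Of 28 Golgi tethers and SNAREs, 9 were lower and 1 (Cog8, named after its value was seen) was higher. Among the lower ones were Stx18, a SNARE that receives vesicles at the ER (−0.87 ± 0.13, edgeR adjusted p = 0.00277), Rab2a (−0.72 ± 0.11, edgeR adjusted p = 0.00282) and Scfd1 (−0.55 ± 0.11, edgeR adjusted p = 0.00828).

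Many genes that act on the proteins inside the ER were lower. P4hb, a protein disulfide isomerase, had 629, 639.9 and 649 CPM in pro-lymphoid libraries, against 1543, 1604 and 1496 CPM in pro-myeloid libraries (−1.28 ± 0.12, edgeR adjusted p = 0.000394). Dnajc10, a reductase of misfolded proteins, was lower at −1.56 ± 0.23 (edgeR adjusted p = 0.00246), and Uggt1, which checks the folding of glycoproteins, at −0.91 ± 0.13 (edgeR adjusted p = 0.0021). Hspa5, the gene for the KDEL-bearing chaperone BiP, had 772, 687 and 699 CPM in pro-lymphoid libraries, against 1406, 1092 and 1039 CPM in pro-myeloid libraries (−0.71 ± 0.16, edgeR adjusted p = 0.0113). Calr, for calreticulin, was lower at −0.80 ± 0.26 (edgeR adjusted p = 0.0459, not past 0.05 in 4 of the 6 fits that left out 1 library), and Hsp90b1 did not pass (−0.29 ± 0.16, edgeR adjusted p = 0.199).

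Of 12 oligosaccharyltransferase genes, 3 were lower and none higher. Stt3b, a catalytic subunit, had 212, 220.1 and 235 CPM in pro-lymphoid libraries, against 443, 382 and 439 CPM in pro-myeloid libraries (−0.92 ± 0.11, edgeR adjusted p = 0.00126). Stt3a, the catalytic subunit that works at the Sec61 channel, was lower at −0.37 ± 0.11 (edgeR adjusted p = 0.0352), and Rpn2, another subunit, at −0.54 ± 0.12 (edgeR adjusted p = 0.0134). In tail-anchor insertion, Wrb (0.54 ± 0.15, edgeR adjusted p = 0.0256) and Cox4nb, a subunit of the ER membrane complex now called Emc8 (0.60 ± 0.11, edgeR adjusted p = 0.00707), were higher, while Ttc35, now Emc2, was lower (−0.62 ± 0.14, edgeR adjusted p = 0.0129).

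Some regulators of the unfolded protein response, which are known to raise many genes of this route, passed as lower and others did not. Of 22 tested sensors, factors and ER-associated degradation genes, 10 were lower, none higher, and 12 did not pass (median −0.40). Those that did not pass include the sensors Eif2ak3 (0.05 ± 0.18, edgeR adjusted p = 0.84) and Atf6 (−0.12 ± 0.11, edgeR adjusted p = 0.438) and the factor Atf4 (−0.35 ± 0.32, edgeR adjusted p = 0.421), all 3 named after their values were seen. Xbp1, the transcription factor named above for its motif, had 129.6, 156 and 135 CPM in pro-lymphoid libraries, against 276, 444 and 348 CPM in pro-myeloid libraries (−1.34 ± 0.19, edgeR adjusted p = 0.00206). Ern1, the sensor that splices its transcript, had 67.6, 52.1 and 55.5 CPM in pro-lymphoid libraries, against 127, 124 and 123 CPM in pro-myeloid libraries (−1.09 ± 0.13, edgeR adjusted p = 0.00102). Creb3l2, a membrane-bound factor known for raising Sec23a in cartilage, had 4.07, 3.79 and 2.98 CPM in pro-lymphoid libraries, against 22.5, 20.7 and 15.3 CPM in pro-myeloid libraries (−2.43 ± 0.24, edgeR adjusted p = 0.000535). None of the 3 overlapped between the cultures. Counts per gene do not separate spliced from unspliced Xbp1, and whether these factors act on the members was not tested.

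The sums of some marker lists of other cell types differed between the cultures, and those of others overlapped. The 10 markers of the neutrophil granule list summed to 162 to 367 CPM in pro-lymphoid libraries, against 4918 to 9342 CPM in pro-myeloid libraries. Of the 8 tested granule markers, all 8 passed as lower, and none of the 10 was at 0 in all libraries. Beside this and the later marker counts, 20.6% of all tested genes passed as lower and 16.8% as higher. The part of the granule markers in the differences of the secretory genes was not tested. In bulk RNA, fewer cells of a type and less RNA per cell cannot be told apart.

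The labelled cell type was checked against 10 markers of HSPCs and leukemia cells, all of which were detected, with a sum of 2055 to 2540 CPM in pro-lymphoid libraries and 2794 to 3017 CPM in pro-myeloid libraries. Single markers moved both ways. Of the 10, 3 passed as higher in pro-lymphoid culture, with mean CPM of 83.5 in pro-lymphoid and 24.9 in pro-myeloid libraries for Kit, 308 and 117 for Cd34, and 89.1 and 66.1 for Cd48. Another 4 passed as lower, with mean CPM of 39.7 in pro-lymphoid and 108 in pro-myeloid libraries for Meis1, 307 and 635 for Myb, 111 and 215 for Hoxa9, and 451 and 635 for Lmo2. Plasma cell markers summed to 50.2 to 60.8 CPM in pro-lymphoid and 55.1 to 125 CPM in pro-myeloid libraries, and B-lineage markers to 27.1 to 35.8 and 29.7 to 54.8 CPM. Single genes of both lists moved both ways. Of 4 tested plasma cell markers, Irf4 and Ell2 passed as higher in pro-lymphoid culture and Fkbp11 as lower. Of 5 tested B-lineage markers, Blnk passed as higher and Vpreb1 and Igll1 as lower. Plasmacytoid dendritic cell markers summed to 491 to 1084 and 500.3 to 933 CPM, in the same order, but single genes of this list differed. Of its 6 tested genes, 4 passed as higher in pro-lymphoid culture, with mean CPM of 50.3 in pro-lymphoid and 0.558 in pro-myeloid libraries for Siglech, 85.5 and 0.126 for Spib, and 119 and 55.3 for Bst2. The fourth, Ly6d, averaged 49.3 CPM in pro-lymphoid libraries and was at 0 in every pro-myeloid library. Tcf4 passed as lower, with mean CPM of 319.7 in pro-lymphoid and 492 in pro-myeloid libraries. Whether these markers have a part in the differences of the members was not tested. Mast cell and basophil markers were low but unequal, at 1.39 to 3.47 CPM in pro-lymphoid and 10.1 to 107 CPM in pro-myeloid libraries, with Cma1, Fcer1a, Prss34 and Tpsb2 at 0 throughout. Stromal markers summed to 1.93 to 19.5 CPM in pro-lymphoid and 5.54 to 17.2 CPM in pro-myeloid libraries, with Col1a2, Col3a1, Dcn and Lum at 0 throughout.

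Within each culture 1 library differed from the others by gene length. The libraries held 34972488 to 46724382 counts. Pro-lymphoid replicate 1 gave the lowest value of its culture for 34 of the 57 members, and pro-myeloid replicate 2 for 30. In these libraries the 17 members with exons under 1500 bases lay below the mean of their culture, by a median log2 deviation of −0.18 in pro-lymphoid replicate 1 and −0.25 in pro-myeloid replicate 2. Across members, the Spearman correlation of length with the deviation was 0.695 and 0.615 in these libraries, where all tested genes gave 0.295 and 0.305. Each deviation is from the mean of the same culture, so a low library places the others higher. Over the members, the correlation was −0.575 and −0.504 in pro-lymphoid replicates 5 and 6, and −0.4985 and −0.42 in pro-myeloid replicates 3 and 4. These are correlations across 57 genes of 1 library, which share its depth and preparation.

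In both cultures, 1 library had low values for short members. The median log2 fold change was −0.35 for the 17 short members and −0.40 for the 40 longer ones. Without both libraries, an alternative chosen after seeing the data, 28 members passed as lower and 2 (Sec31b and Sec61a2) as higher, at a median of −0.40.

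**Figure D5:**
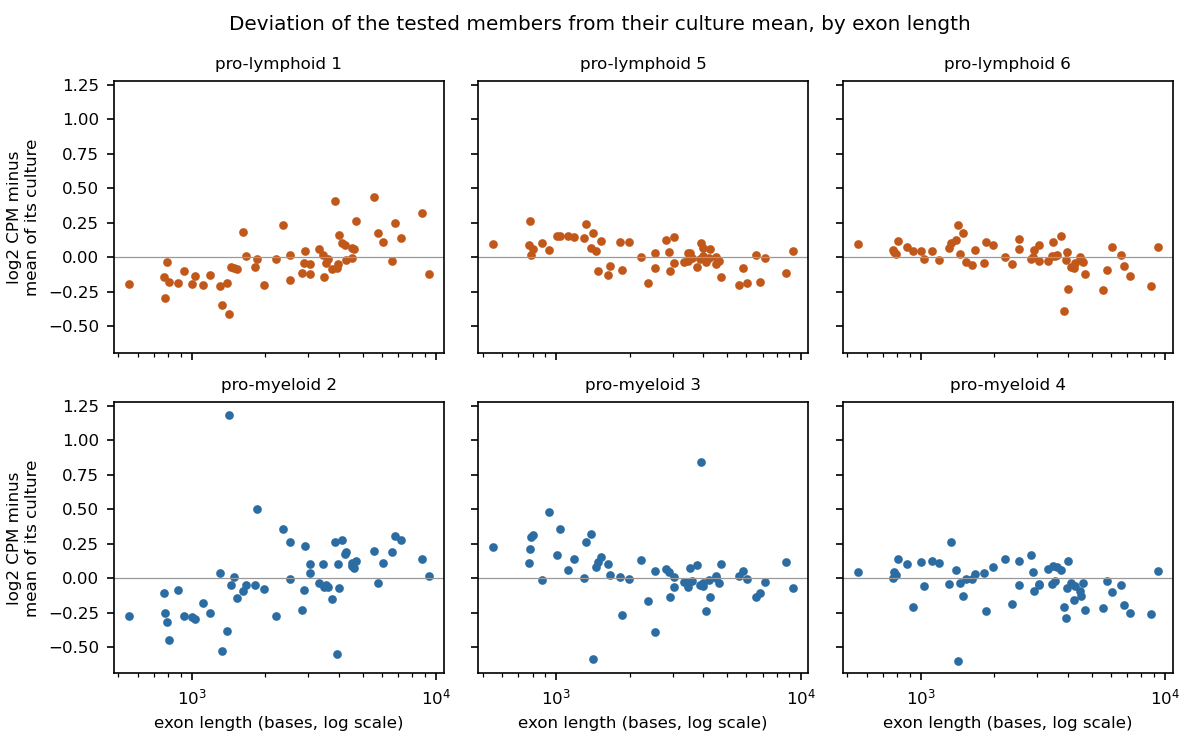
Deviation of each tested member from the mean log2 CPM of its culture (y axis) against its exon length in bases (x axis, log scale), with 1 panel per library. Short genes lie low in pro-lymphoid replicate 1 and pro-myeloid replicate 2 (Spearman 0.695 and 0.615). In the other libraries the correlation is negative (−0.575 to −0.42).

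Leaving out a library changed the calls of many members and the direction of few. Of the 26 members that passed as lower, 10 passed in every alternative fit (Sec62, Ssr1, Ssr3, Sec23a, Sec31a, Copz1, Copz2, Tmed7, Kdelr3 and Sec22b), and the other 16 lost the call in at least 1 fit without a library. Of these 16, 5 (Cope, Kdelr1, Sec61a1, Sec63 and Spcs2) also lost it under another scaling, filter or tool. With 1 library left out, 11 to 27 members passed as lower, 50 to 53 had a negative log2 fold change, and the median lay between −0.42 and −0.32. Among the named genes of the 8 lists, Calr, Hspa5, Rpn2, Stt3a and Wrb lost their calls in at least 1 such fit.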

How the data were processed

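Poly(A) RNA had been sequenced from MLL-AF9 transformed HSPCs of mice, and the labels assign 3 libraries to each culture, pro-lymphoid and pro-myeloid. The authors deposited raw read counts per gene, made with featureCounts 1.5.1 from primary alignments, without strand, over UCSC genes of mm10, per the file headers. The submitters' processing notes also name Trimmomatic, Bowtie, TopHat and DESeq2, without settings. The exon length of each gene comes from the same deposited table. No column of another sample was present (0 columns).

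From the counts, CPM were computed with TMM-scaled library sizes (factors 0.961 to 1.05), and RPKM by dividing CPM by exon length. At these depths 3 counts are 0.065 to 0.0888 CPM, for counting error only. The test was run in edgeR 4.0.16 (R 4.3.3) on 12477 genes that passed filterByExpr, which asks for about 10 counts in a library of median size (0.262 CPM) in 3 libraries. The quasi-likelihood F test was two-sided, with Benjamini-Hochberg adjustment at 0.05 over all tested genes, without covariates. The SE was derived from the F statistic. Scripts were tested on simulated data. Alternatives were RLE, upper-quartile and no scaling, no filter or 1 CPM in 3 libraries, DESeq2 1.42.0, limma-voom 3.58.1, a 2-fold minimum and each library left out.

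The members, the lists and the motifs were chosen with earlier results of these data known. Values per library are printed for the up to 3 members of a role with the largest absolute log2 fold change, the member with the highest mean RPKM, paralogs of opposite sign and members said to be named after their values were seen. Outside the set, up to 3 genes per list with the smallest adjusted p were named, and a panel of 14 genes with known roles. Of the genes this rule names, 1 is not reported here. Older symbols were matched for 17 listed genes. Promoter windows are from RefSeq (GRCm38.p6).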

Additional observations from a re-analysis of the deposited data

How the results depend on the processing

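Under other scalings, filters and tools, 22 to 33 members passed as lower (26 with all settings as reported) and 1 or 2 as higher. The 2 higher members appeared with upper-quartile scaling (2), with DESeq2 (2) and, as an alternative chosen after seeing the data, without pro-lymphoid replicate 1 and pro-myeloid replicate 2 together (2). That alternative gave 28 members lower, and 9 other pathway genes higher and 54 lower. With a 2-fold minimum, 2 members passed as lower, and of the other pathway genes 0 passed as higher, since the largest log2 fold change was 0.86, and 16 as lower. With each library left out in turn, members passing as lower ranged from 11 to 27 and as higher from 0 to 2. The 0 arose without pro-myeloid replicate 4 in edgeR, where 1 member (Sec31b) was higher at an unadjusted p under 0.05. In the same fits, other pathway genes passing as higher ranged from 3 to 8 and as lower from 35 to 61, and all genes passing from 2893 to 5224. The lowest of these, 11 members, came without pro-lymphoid replicate 5, and 35 pathway genes and 2893 genes without pro-lymphoid replicate 6. No named gene changed direction past the threshold. Of the single-gene values recomputed, 1173 kept their side of the threshold, 101 lost the call and 27 gained it. The cause of these changes was not tested, but fits without a library have fewer samples. No paired analysis was possible because the replicate numbers of the 2 cultures do not overlap. The sum of members stayed between 7662 and 7869 CPM in pro-lymphoid and between 10182 and 10438 CPM in pro-myeloid libraries. Depth limits Copz2, Kdelr3 and Sec31b, which had few counts in 1 culture, and Sec14l2, which had few in both.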
